A study of Mus musculus with 18 samples.

Results

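The cytosolic ribosome of mouse hearts was followed through the transcripts of its protein genes. Members were taken by symbol from the deposited table of all libraries: Rpl or Rps with a number, with or without the endings a, x, l, al or l1, together with Rplp0, Rplp1, Rplp2 and Rpsa. The choice found 84 of the 24341 genes in the table. Of these, 49 encode proteins of the large subunit, 32 encode proteins of the small subunit and 3 encode the stalk. All 32 small-subunit genes, 47 large-subunit genes and the 3 stalk genes reached at least 1 FPKM (fragments per kilobase of transcript, scaled to library size) in at least 3 libraries, which left 82 members for testing among 12587 genes. The remaining 2 members were Rpl10l, which stood at the table's floor of 0.01 FPKM in all 18 libraries, and Rpl39l, which lay between 0.01 and 0.524 FPKM.

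The 18 hearts came from C57BL/6 mice aged 12 weeks, 3 in each of 6 groups: Med13 cardiac knockout (cKO) on PTU followed by T3, cKO on PTU, cKO on normal chow, wild type (WT) on PTU followed by T3, WT on PTU, and WT on normal chow. Propylthiouracil (PTU) blocks thyroid hormone synthesis, and T3 is the active hormone. PTU diet was fed for 4 weeks from the age of 8 weeks, T3 followed as 3 daily injections, and the labels describe no vehicle injection for the other groups. Med13 belongs to the kinase module of Mediator, which joins transcription factors to RNA polymerase II. The promoter or Cre line behind the knockout, and whether WT mice carried an unrecombined allele, are not given in the sources used here.

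A ribosome joins a large and a small subunit, each built in the nucleolus from ribosomal RNA and a fixed set of proteins. The protein genes are transcribed in concert, and their mRNAs start with a run of pyrimidines, the TOP motif, through which the kinase mTORC1 controls their translation. Several ribosomal proteins have a second gene, a paralogue, with a restricted pattern of use, such as the striated-muscle protein Rpl3l, which takes the place of Rpl3. In the heart, thyroid hormone switches myosin and calcium-handling genes, and protein synthesis rises with growth of the organ.

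The absolute depth of the libraries is unknown because FPKM values hold no read totals. Each library held 11679 to 12093 genes at 1 FPKM or above and had a sum of 551177 to 766445 FPKM. All 7 cardiomyocyte markers reached 1 FPKM, as did all markers of atrial cells, macrophages, fibroblasts, endothelium and red cells, and Cd3d and Cd3e of T cells never reached 1 FPKM. Med13 had 6.82, 6.499 and 5.44 FPKM in cKO hearts on PTU with T3, 6.05, 4.93 and 5.04 FPKM in cKO hearts on PTU and 6.26, 6.34 and 5.09 FPKM in cKO hearts on chow. WT hearts had 6.29, 5.30 and 5.61 FPKM on PTU with T3, 6.55, 5.57 and 6.96 FPKM on PTU and 5.52, 5.24 and 5.80 FPKM on chow. The genotypes overlapped on every treatment, so Med13 transcript level did not check the labels, and the hearts are called those labelled cKO, or cKO for short. Whether every library stems from its own mouse is not spelled out in the labels, and p-values here speak only to the spread among these libraries, which may be technical.

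Ribosomal protein genes were among the most abundant transcripts of the heart. Rplp1, an acidic protein of the stalk that recruits elongation factors, ranked highest of the members with a mean of 2153 FPKM (1818 to 2604 over the 18 libraries). Rps29 led the small subunit with a mean of 1740 FPKM (1422 to 2147), and Rpl41, the smallest protein of the large subunit, led that subunit with 1395 FPKM (1168 to 1640). Of the 49 large-subunit genes, Rpl6 held the median with 455 FPKM. At the low end of those tested stood Rpl34 of the large subunit with 23.9 FPKM (11.4 to 41.6) and Rps27 of the small subunit with 8.38 FPKM, a mean carried by 1 library at 113 FPKM, the other 17 lying at 0.556 to 4.62 FPKM. Together the 84 genes took 7.99% to 8.00% of the summed FPKM in cKO hearts on PTU with T3, 8.46% to 9.91% in cKO hearts on PTU and 6.92% to 7.75% in cKO hearts on chow. In WT hearts the shares were 7.84% to 8.83% on PTU with T3, 8.65% to 9.32% on PTU and 6.68% to 7.74% on chow. The PTU hearts lay above the chow hearts of the same genotype without overlap.

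**Figure D1:**
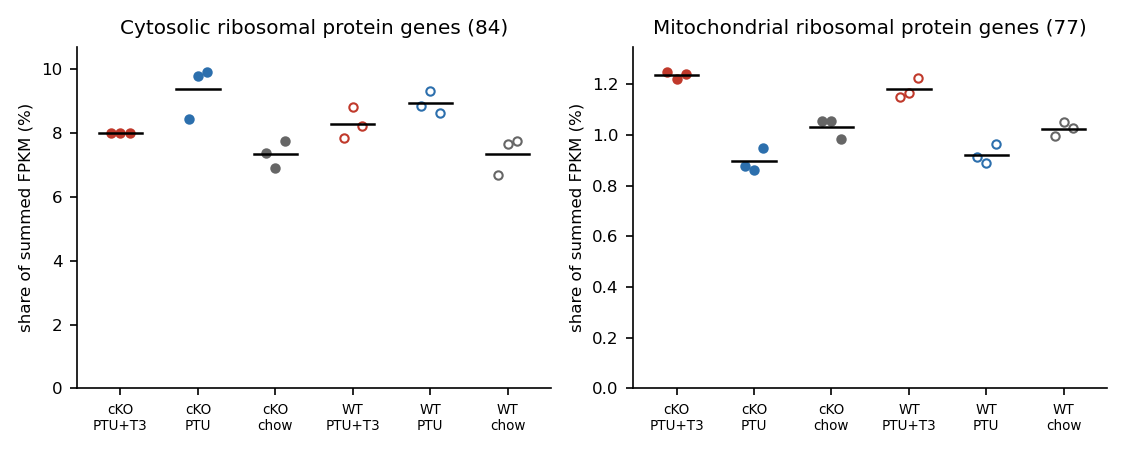
Share of the summed FPKM (%) taken by the 84 cytosolic ribosomal protein genes (left) and by the 77 mitochondrial ribosomal protein genes (right) in each of 18 hearts. Each point is a library (filled, cKO; open, WT), each line is the mean of 3; the cytosolic share was highest on PTU, with 8.46% to 9.91% in cKO hearts, whereas the mitochondrial share was lowest there.

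Some of the genes on which the treatment results turn are shown with the sequence around their start. Rpl7l1, Rpl36al, Rpsa and Rpl10 were also called in both genotypes after T3 and are not shown. Windows run from 100 bases before to 20 after the start in RefSeq (build GRCm38.p6), 5′ to 3′ on the gene's strand. Capitals mark TATAAA, the nuclear receptor hexamer AGGTCA, the ETS-family motif CCGGAAG (each on either strand) and runs of 8 or more pyrimidines within 20 bases of the start. Rpl22l1 and Rps27l are shown because they rose after T3, Rpl22, Rps9 and Rps4x because they fell, and Rpl3l because it differed between treatments in the cKO hearts.
Rpl22l1, chr3:28805408-28805527, plus strand: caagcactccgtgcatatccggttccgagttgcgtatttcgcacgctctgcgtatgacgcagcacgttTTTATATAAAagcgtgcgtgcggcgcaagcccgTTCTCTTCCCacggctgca
Rps27l, chr9:66945986-66946105, plus strand: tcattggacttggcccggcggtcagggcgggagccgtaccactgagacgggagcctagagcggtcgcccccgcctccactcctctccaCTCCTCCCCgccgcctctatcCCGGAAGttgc
Rpl22, chr4:152325626-152325745, plus strand: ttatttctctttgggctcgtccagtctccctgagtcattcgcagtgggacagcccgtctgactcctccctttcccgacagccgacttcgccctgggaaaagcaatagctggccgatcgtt
Rps9, chr7:3703941-3704060, plus strand: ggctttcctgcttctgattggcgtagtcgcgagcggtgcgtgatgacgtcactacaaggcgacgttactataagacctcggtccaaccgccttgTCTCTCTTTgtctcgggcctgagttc
Rps4x, chrX:102189372-102189491, minus strand: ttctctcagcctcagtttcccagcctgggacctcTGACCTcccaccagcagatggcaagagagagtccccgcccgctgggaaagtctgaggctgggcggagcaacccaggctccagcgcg
Rpl3l, chr17:24727726-24727845, plus strand: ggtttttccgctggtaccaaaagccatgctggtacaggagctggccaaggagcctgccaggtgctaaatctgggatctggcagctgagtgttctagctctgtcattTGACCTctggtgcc
Rpl22l1 holds TATAAA on both strands in overlapping letters and a pyrimidine run at its RefSeq start. That start lies 39 bases from the start of the main GENCODE transcript. Rps27l holds CCGGAAG and a pyrimidine run that ends before its start. Rps9 holds only the run among the marked letters, Rpl22 holds none of them in this window, and the RefSeq start of Rpl22 lies 127 bases from that of the main GENCODE transcript. Rps4x and Rpl3l each hold AGGTCA on the other strand.

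Over whole entries, from 250 bases before to 50 after the start, 63 of the 84 members had a sequence. Of the 63, 44.4% had the pyrimidine run within 20 bases of the start, against 15.9% of all 27025 symbols with an entry. The motifs that follow were searched over the whole entry. CCGGAAG stood in 39.7% of the members and 9.12% of all, and AAGATGG, the letters of YY1, in 14.3% and 6.48%. AGGTCA was found in 9.52% of the members (Rpl10l, Rpl24, Rpl35a, Rpl3l, Rps3 and Rps4x) and 16% of all. The DR4 form, AGGTCA repeated in the same direction with 4 bases between, contains the hexamer and was found in 0 members and 0.0111% of all. CACGTG, the E-box of Myc, stood in 7.94% of the members and 7.24% of all, and TATAAA in 9.52% and 14.2%. These are letters in a window, counted on both strands except for the run, and say nothing of binding. Where a symbol had several entries, members were read at the entry nearest the main GENCODE start. For all symbols the first listed entry was taken, so the paired shares can rest on unlike starts.

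In cKO hearts 8 members were higher and 1 lower on PTU than on chow, and in WT hearts 34 were higher and 2 lower (limma on log2(FPKM + 1), Benjamini-Hochberg adjusted p under 0.05 over 12587 genes). Of all genes tested, 16.0% were called in the cKO hearts (6.44% higher, 9.59% lower) and 16.8% in the WT hearts (8.02% higher, 8.76% lower). The 8 of 82 members in cKO hearts stood near the background share. The median log2 fold change of the 82 members was 0.21 in cKO hearts and 0.33 in WT hearts, where that of all genes was 0.00, and 71 members had a positive value in each genotype. The 3 PTU hearts all lay above the 3 chow hearts for 36 members in the cKO genotype (15.1% of all genes) and for 60 members in WT (18.3% of all genes), and all below for 1 and 2 members (17.3% of all genes in each genotype). Of 47 large-subunit genes 5 were higher in cKO hearts and 18 in WT hearts, of 32 small-subunit genes 3 and 16 were, and of the 3 stalk genes 0 were called. The members higher in both genotypes were Rpl10, Rpl22, Rpl5, Rpl7, Rps12, Rps23 and Rps4x, which make 87.5% of the 8 in cKO hearts and 20.6% of the 34 in WT hearts. In bulk tissue, fewer cells of a type and less RNA per cell cannot be told apart.

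**Figure D2:**
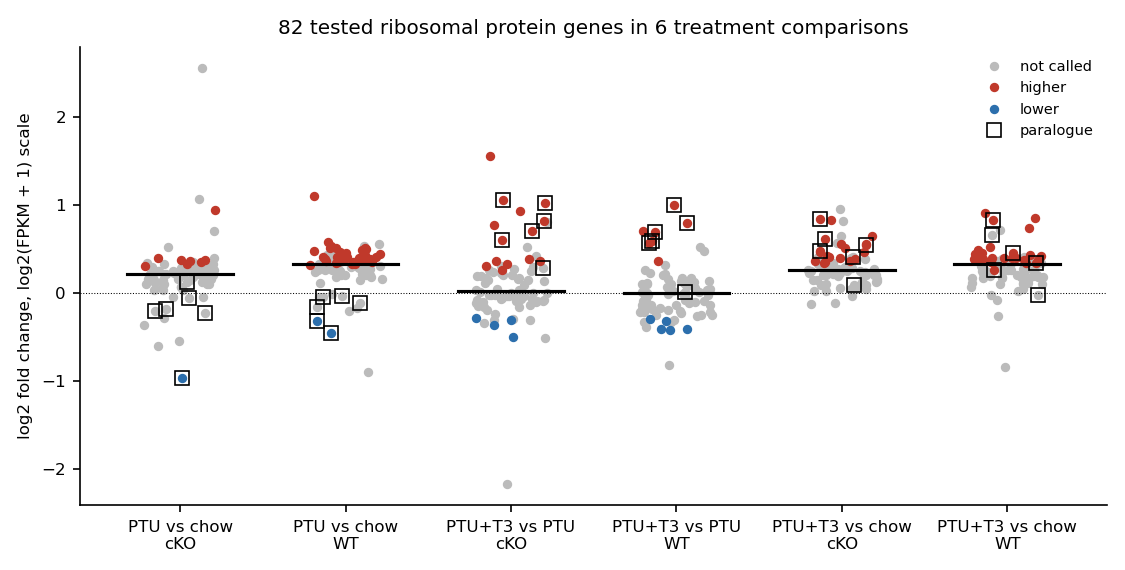
Log2 fold changes of the 82 tested ribosomal protein genes (vertical axis, log2(FPKM + 1) scale) in 6 treatment comparisons. Points are genes (red, higher; blue, lower; grey, not called by limma at adjusted p under 0.05), squares mark paralogues and lines are medians: 0.21 and 0.33 for PTU against chow, near 0 for PTU with T3 against PTU, 0.26 and 0.32 for PTU with T3 against chow, cKO before WT in each pair.

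Rps23, which lies at the decoding centre, had 827, 863 and 1046 FPKM in cKO hearts on PTU, against 668, 755 and 684 FPKM on chow. In WT hearts it had 893, 969 and 983 FPKM on PTU, against 592, 720.3 and 665 FPKM on chow. All PTU hearts lay above the chow hearts of their genotype, with log2 fold changes of 0.37 (SE 0.107, adjusted p = 0.0277) in cKO and 0.53 (SE 0.107, adjusted p = 0.00355) in WT hearts. Rpl5, which with Rpl11 and 5S RNA can bind Mdm2, had 317, 303 and 389 FPKM on PTU against 269, 258 and 256 FPKM on chow in cKO hearts, and 359.8, 341 and 398 FPKM against 243, 279 and 258 FPKM in WT hearts. Its groups did not overlap either, and it rose by 0.36 (adjusted p = 0.0308) and 0.49 (adjusted p = 0.00521) on the log2 scale. The largest rise in WT was that of Rpl35a, a large-subunit protein mutated in Diamond-Blackfan anaemia in people, with 764, 742 and 830.4 FPKM on PTU against 381, 287 and 439 FPKM on chow. Its log2 fold change was 1.10 (SE 0.326, adjusted p = 0.0313) in WT, and 0.71 (adjusted p = 0.155) in cKO hearts. Rpl21 (0.58), Rps23 (0.53), Rpl9 (0.51) and Rpl14 (0.51) came next by log2 fold change among the members called in WT.

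Several of these counts rested on single libraries. Leaving out 1 library of the groups compared gave 3 members called in cKO hearts without chow replicate 1, 3 without chow replicate 2, 4 without chow replicate 3, 15 without PTU replicate 1, 4 without PTU replicate 2 and 3 without PTU replicate 3. In WT hearts 9 were called without chow replicate 1, 22 without chow replicate 3, 17 without PTU replicate 1 and 11 without PTU replicate 3. The calls over all genes fell too, to 7.59% to 15.4% in these cKO fits and 10.7% to 11.9% in these WT fits. With all libraries they were 16.0% and 16.8%. Rpl22 (0.47 in WT) and Rps23 in WT kept their calls in all 29 alternative settings. Rpl35a lost its call without chow replicate 1 or 2 or without any 1 of the PTU hearts, with adjusted p up to 0.111. It also lost its call when each library was scaled to a fixed sum of FPKM (adjusted p = 0.0643). Rps23 in cKO hearts lost its call without chow replicate 1 or 3 or PTU replicate 3, with adjusted p up to 0.111. Rpl5 in cKO hearts lost its call without PTU replicate 3 or any 1 of the chow hearts, with adjusted p up to 0.12. In WT hearts Rpl21 lost its call without PTU replicate 1 or 3 or chow replicate 1 or 3 (adjusted p up to 0.171), Rpl9 without PTU replicate 1 or 3 or chow replicate 1, and Rpl14 without PTU replicate 3 or chow replicate 1. The summed FPKM of 5 atrial cardiomyocyte genes was 3281 to 10236 in cKO hearts on PTU against 1196 to 2885 on chow, and 1658 to 6904 in WT hearts on PTU against 881 to 8027 on chow. The atrial groups did not overlap in cKO hearts and overlapped in WT hearts, and limma called 0 of the 5 genes in either genotype. Of 7 cardiomyocyte markers 3 were lower in cKO hearts, and 2 lower and 1 higher in WT hearts. Red-cell markers (5 genes) summed to 343 to 858 FPKM in cKO hearts on PTU against 1106 to 1923 FPKM on chow, with 3 called lower, and to 573 to 1350 FPKM against 1109 to 1379 FPKM in WT hearts, with 0 called. Of 8 macrophage markers 0 were called in cKO hearts (median -0.60) and 6 were lower in WT hearts (median -0.99), a WT count of 2, 0, 2 and 2 without chow replicate 1, chow replicate 3, PTU replicate 2 and PTU replicate 3. Over the alternative settings 0 to 6 macrophage markers were lower in cKO hearts and 0 to 7 in WT hearts. No difference between genotypes is read from these counts. The part of these cells in the result was not tested. Without the library highest in atrial markers of each group, which leaves 2 per group, 0 members were called in cKO hearts and 2 in WT hearts, with medians of 0.21 and 0.37. Of all genes, 10.2% and 7.31% were called in that setting.

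On PTU against chow, the paralogues gave few calls. None of the 6 tested paralogues was called higher, Rpl3l was lower in cKO hearts, and Rpl7l1 and Rps27l were lower in WT hearts, while none of the 76 other members was called lower in either genotype. Rps27l, whose human counterpart is a p53 target, had 162, 171 and 211 FPKM in WT hearts on PTU against 216, 265 and 266 FPKM on chow, without overlap, and its log2 fold change was -0.46 (SE 0.130, adjusted p = 0.0242). Rpl7l1, a relative of Rpl7 that in other species acts in assembly of the large subunit, had 17.4, 21.6 and 18.8 FPKM in WT hearts on PTU against 24.0, 24.4 and 24.2 FPKM on chow. Its log2 fold change was -0.32 (SE 0.0849, adjusted p = 0.0166). In cKO hearts the values were -0.20 (adjusted p = 0.321) for Rps27l and -0.22 (adjusted p = 0.0842) for Rpl7l1. Both WT calls rested on few hearts: the largest adjusted p was 0.105 for Rps27l without PTU replicate 1, and it also lost its call without PTU replicate 2, chow replicate 2 or chow replicate 3. Rpl7l1 lost its call without PTU replicate 1 or 3, with adjusted p up to 0.0847, and under scaling to a fixed sum (adjusted p = 0.0752).

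After T3, a few ribosomal protein genes rose and a few fell. In cKO hearts 14 members were higher and 4 lower on PTU with T3 than on PTU, and in WT hearts 7 were higher and 5 lower. Of all genes, 46.7% were called in the cKO hearts (24.9% higher, 21.8% lower) and 44.1% in the WT hearts (22.3% higher, 21.8% lower). T3 hearts lay wholly above PTU hearts for 14 members and wholly below for 6 in the cKO genotype (28.5% and 26.9% of all genes), and for 10 and 17 in WT (25.4% and 25.3%). Their median log2 fold change was 0.02 in cKO and -0.00 in WT hearts, against 0.00 and -0.00 for all genes. This comparison shares its PTU libraries with the comparison of PTU and chow, and the 2 sets of values are given side by side only. Scaling each library to a fixed sum of FPKM moved the median of all genes by -0.23 in cKO hearts and that of the members to -0.25, and the split there became 6 higher and 41 lower; relative to all genes the members then stood at -0.02. In WT hearts the same scaling gave 7 higher and 20 lower. Under it 49.8% of all genes were called in cKO hearts and 39.3% in WT hearts. Leaving out PTU replicate 3 of the cKO group, which enters only through the shared spread, raised the WT count to 19.

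Members higher in both genotypes were Rpl22l1, Rpl36al, Rpl7l1, Rps27l and Rpsa, which make 35.7% of the 14 in cKO hearts and 71.4% of the 7 in WT hearts. The first 4 are paralogues, and of the 6 tested paralogues 5 were called higher in each genotype. Rpl22l1, the paralogue of Rpl22 with 69.4% identity of the coding sequence, came first. It had 231, 249 and 232 FPKM in cKO hearts on PTU with T3 against 97.1, 116 and 138 FPKM on PTU, and 197, 218 and 249.8 FPKM against 104, 96.8 and 133 FPKM in WT hearts. The lowest T3 heart lay above the highest PTU heart in each genotype. Its log2 fold changes were 1.03 (SE 0.202, adjusted p = 0.000656) in cKO and 0.99 (SE 0.202, adjusted p = 0.000965) in WT hearts.

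Rps27l had 306, 343 and 337 FPKM in cKO hearts on PTU with T3 against 169, 191 and 202 FPKM on PTU, and 273, 322 and 353 FPKM against 162, 171 and 211 FPKM in WT hearts. The groups were separate, with log2 fold changes of 0.81 (adjusted p = 0.000104) and 0.80 (adjusted p = 0.000144). Rpl7l1 had 30.5, 30.9 and 31.8 FPKM against 17.5, 20.4 and 18.2 FPKM in cKO hearts, and 28.7, 28.4 and 30.8 FPKM against 17.4, 21.6 and 18.8 FPKM in WT hearts. It had the smallest adjusted p of the members, 6.98e-06 in cKO and 4.98e-05 in WT hearts, at log2 fold changes of 0.70 and 0.59. Rpl36al, a second gene for the Rpl36a protein with 87.7% coding identity, had 326, 336 and 289 FPKM against 185, 209 and 232 FPKM in cKO hearts, and 260.0, 335 and 332 FPKM against 203, 194 and 226 FPKM in WT hearts. Its log2 fold changes were 0.60 (adjusted p = 0.000364) and 0.57 (adjusted p = 0.000705). The calls of Rpl22l1, Rps27l, Rpl7l1 and Rpl36al held in both genotypes in all 29 alternative settings.

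Rpsa, the small-subunit protein also known as the laminin receptor, had 597, 459 and 396 FPKM in cKO hearts on PTU with T3 against 239, 302 and 299 FPKM on PTU. WT hearts had 372, 589.5 and 613 FPKM against 292, 251 and 419 FPKM, where the lowest T3 heart lay under the highest PTU heart. Its log2 fold changes were 0.78 (SE 0.237, adjusted p = 0.0137) and 0.71 (SE 0.237, adjusted p = 0.024). The annotation names 9 pseudogenes after Rpsa, and reads from near-identical copies could be split among them. That limit is not particular to Rpsa. The annotation names 23 after Rps12, 15 after Rpl21, 14 after Rpl23a, 7 after Rpl9, 6 after Rpl35a and 6 after Rpl26. It names 0 after Rpl22l1, Rps27l, Rpl36al and Rps9. The cKO call of Rpsa was lost without PTU replicate 1 or the PTU with T3 replicate 1 (adjusted p up to 0.0695). It was lost too under scaling to a fixed sum (adjusted p = 0.0604). The WT call was lost without PTU replicate 1 or 2 or PTU with T3 replicate 2 or 3 (adjusted p up to 0.106). Rps4l, a copy of Rps4x, had 34.5, 32.9 and 29.0 FPKM in cKO hearts on PTU with T3 against 23.6, 33.1 and 22.9 FPKM on PTU, and 27.3, 39.9 and 43.7 FPKM against 26.8, 22.4 and 17.8 FPKM in WT hearts. It was called in WT only (0.70, adjusted p = 0.0166; cKO 0.28, adjusted p = 0.299), and the interaction of T3 with genotype was not called for it. Its WT call was lost without PTU replicate 3 or PTU with T3 replicate 2 or 3, with adjusted p up to 0.0777.

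Members lower in both genotypes were Rpl10, Rpl22, Rps4x and Rps9, which make 100% of the 4 in cKO hearts and 80% of the 5 in WT hearts; Rps10 was the fifth in WT, with a log2 fold change of -0.32 (adjusted p = 0.0415) that lost its call without any 1 of the WT PTU hearts or without WT PTU with T3 replicate 1 or 2 (adjusted p up to 0.119). Rpl22, which is dispensable for translation at large in mice and represses its own paralogue, had 87.0, 86.7 and 78.7 FPKM in cKO hearts on PTU with T3 against 100.4, 103 and 109 FPKM on PTU. WT hearts had 69.7, 79.0 and 85.7 FPKM against 102, 101 and 112 FPKM. All T3 hearts lay under all PTU hearts, and the log2 fold changes were -0.31 (SE 0.0814, adjusted p = 0.00567) and -0.42 (SE 0.0814, adjusted p = 0.000624), calls that held in all 29 settings. Rpl10, which joins the large subunit late and completes the catalytic centre, had 797, 793 and 738 FPKM against 917, 1174 and 1215 FPKM in cKO hearts, and 738, 943 and 853 FPKM against 1105, 1074 and 1172 FPKM in WT hearts. The groups were separate, at log2 fold changes of -0.50 (adjusted p = 0.00259) and -0.41 (adjusted p = 0.0101), and the WT call was lost without PTU with T3 replicate 1 (adjusted p = 0.0556).

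Rps9, an early binder in assembly of the small subunit, had 926, 1001 and 932 FPKM in cKO hearts on PTU with T3 against 1065, 1176 and 1449 FPKM on PTU, and 904, 894 and 1021 FPKM against 1259, 1183 and 1284 FPKM in WT hearts. Its log2 fold changes were -0.36 (adjusted p = 0.0139) and -0.40 (adjusted p = 0.00731). Rps4x, the X-linked small-subunit gene, had 819, 876 and 816 FPKM against 917, 987 and 1170 FPKM in cKO hearts, and 797, 849.9 and 897 FPKM against 984, 1089 and 1042 FPKM in WT hearts, at -0.28 (adjusted p = 0.0248) and -0.29 (adjusted p = 0.0233). For both genes every T3 heart lay under every PTU heart of its genotype. PTU replicate 3 of the cKO group carried their cKO calls in part: without it the adjusted p was 0.075 for Rps9 and 0.122 for Rps4x, and Rps4x lost its call too without cKO PTU with T3 replicate 1 or 3, and in WT without PTU replicate 2 or PTU with T3 replicate 1 (adjusted p up to 0.0852). On PTU against chow these 4 genes had positive log2 fold changes of 0.24 to 0.37 in cKO and 0.33 to 0.51 in WT hearts, all called except Rps9 in cKO hearts (adjusted p = 0.143). Leaving out 1 library at a time ended the cKO call of Rpl10 there in 10 of 18 fits (adjusted p up to 0.136), the cKO call of Rps4x in 8 of 18 (up to 0.148) and the WT call of Rps9 in 15 of 18 (up to 0.159). On PTU with T3 against chow they had -0.12 to 0.05 in cKO and -0.07 to 0.12 in WT hearts, and none was called.

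**Figure D3:**
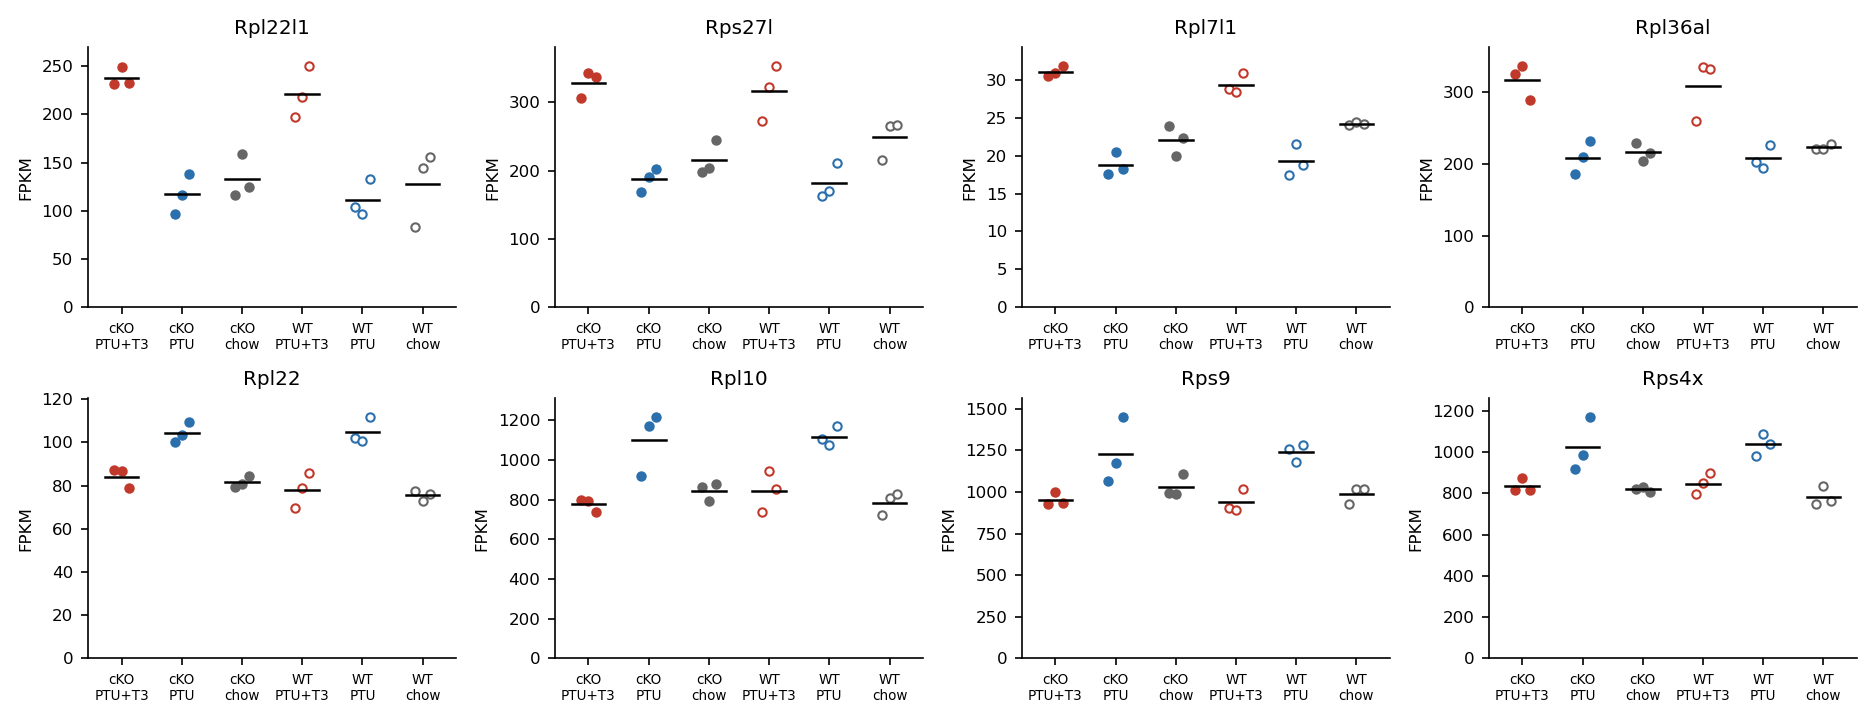
FPKM (vertical axes) of 4 paralogues that rose after T3 (top) and of 4 members that fell (bottom) in the 18 hearts, by genotype and treatment. Filled points are cKO and open points WT libraries, red PTU with T3, blue PTU, grey chow, and lines are means of 3; Rpl22l1 lay at 197 to 249.8 FPKM in the 6 hearts given T3 and at 83.3 to 159 FPKM in the other 12.

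The pair Rpl22l1 and Rpl22 shifted in opposite directions. Their FPKM ratio was 2.83 ± 0.152 in cKO hearts on PTU with T3, 1.12 ± 0.147 on PTU and 1.64 ± 0.283 on chow (SD, n = 3 each). In WT hearts it was 2.83 ± 0.0779 on PTU with T3, 1.06 ± 0.117 on PTU and 1.70 ± 0.540 on chow. The ratio of Rpl36al to Rpl36a was 0.860 ± 0.0556, 0.550 ± 0.0234 and 0.701 ± 0.0434 in the cKO groups in the same order, and 0.821 ± 0.0424, 0.545 ± 0.0330 and 0.718 ± 0.0568 in the WT groups. For both pairs the hearts on PTU with T3 lay above those on PTU in each genotype. They also lay above the chow hearts, except that the WT hearts on T3 and on chow overlapped for Rpl36al to Rpl36a. The ratio of Rpl7l1 to Rpl7 was 0.0377, 0.0213 and 0.0314 on average in the cKO groups, and 0.0370, 0.0223 and 0.0363 in the WT groups. These ratios are on the FPKM scale and were not tested.

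**Figure D4:**
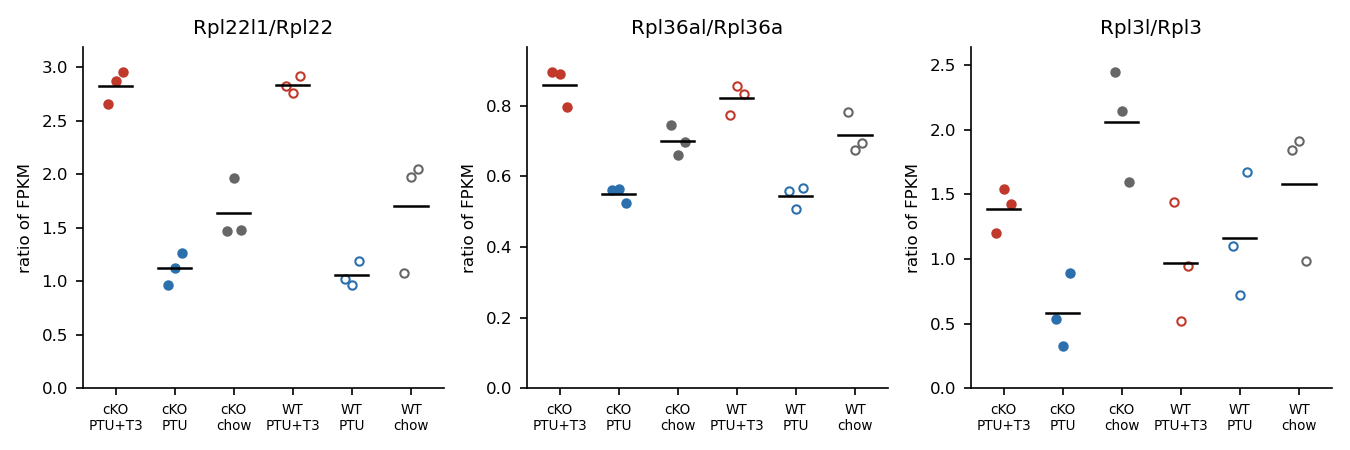
Ratio of the FPKM of a paralogue to that of its partner (vertical axes) for Rpl22l1/Rpl22, Rpl36al/Rpl36a and Rpl3l/Rpl3 in each heart; lines are means of 3, filled points cKO, open points WT. Rpl22l1/Rpl22 averaged 2.83 on PTU with T3 in both genotypes and 1.12 (cKO) and 1.06 (WT) on PTU.

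Rpl3 and its muscle paralogue Rpl3l, 74.3% identical in coding sequence, both reach towards the catalytic centre and are used in place of each other. Rpl3l had 333, 391.8 and 333 FPKM in cKO hearts on PTU with T3, 162, 119 and 249 FPKM on PTU and 374, 359 and 269 FPKM on chow. In WT hearts it had 304, 194 and 303 FPKM on PTU with T3, 264, 203 and 324 FPKM on PTU and 278, 337 and 200.015 FPKM on chow. The cKO hearts on PTU lay under the other cKO hearts without overlap, while the 3 WT groups overlapped. In cKO hearts its log2 fold change was -0.97 (SE 0.263, adjusted p = 0.022) on PTU against chow and 1.05 (SE 0.263, adjusted p = 0.00407) on PTU with T3 against PTU, and in WT hearts -0.04 (adjusted p = 0.943) and 0.01 (adjusted p = 0.971). The first cKO call was lost without chow replicate 1 or 2 or PTU replicate 1 or 2 (adjusted p up to 0.0904), and the second in 1 of 29 settings, without the hearts highest in atrial markers (0.72, adjusted p = 0.0646). In the same cKO comparisons 3 of 7 cardiomyocyte markers were lower on PTU against chow and 4 were higher on PTU with T3 against PTU, and their part in the result was not tested.

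Rpl3 had 278, 255 and 234 FPKM in cKO hearts on PTU with T3, 304, 367 and 281 FPKM on PTU and 153, 168 and 168 FPKM on chow, and 211, 375 and 322 FPKM, 241, 279.9 and 193 FPKM and 151, 176 and 204 FPKM in the WT groups in the same order. On PTU against chow it rose in cKO hearts by 0.95 (SE 0.184, adjusted p = 0.0032), whereas WT gave 0.42 (adjusted p = 0.131). The ratio of Rpl3l to Rpl3 averaged 1.39 ± 0.173 in cKO hearts on PTU with T3, 0.582 ± 0.285 on PTU and 2.06 ± 0.428 on chow, and 0.968 ± 0.464, 1.17 ± 0.478 and 1.58 ± 0.517 in the WT groups (SD, n = 3 each). The difference between genotypes did not pass the test. The interaction of PTU with genotype was -0.93 for Rpl3l (SE 0.372) and 0.53 for Rpl3 (limma adjusted p = 0.764 for each). The interaction of T3 with genotype was 1.04 for Rpl3l and -0.62 for Rpl3 (limma adjusted p = 0.696 for each).

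Some members were called in a single genotype after T3. In cKO hearts these were Rpl18, Rpl23a, Rpl24, Rpl26, Rpl27, Rpl34, Rpl3l, Rpl7a and Rps15a, all higher, and in WT hearts Rps26 and Rps4l, higher, and Rps10, lower. Rpl34 had 31.3, 41.6 and 30.1 FPKM in cKO hearts on PTU with T3 against 11.4, 17.9 and 25.3 FPKM on PTU, without overlap (0.93, SE 0.263, adjusted p = 0.00899). WT hearts had 35.1, 25.2 and 31.9 FPKM against 18.8, 28.8 and 18.6 FPKM (0.47, adjusted p = 0.159). Rpl26, which in human cells binds p53 mRNA, had the highest log2 fold change of the members in cKO hearts, 1.55 (SE 0.528, adjusted p = 0.0268), from 64.3, 28.7 and 32.5 FPKM on PTU with T3 against 21.4, 20.9 and 4.23 FPKM on PTU. It lost its call without the PTU heart at 4.23 FPKM (0.86, adjusted p = 0.115) and without PTU with T3 replicate 1 (adjusted p = 0.11), as well as under both fixed-sum scalings (adjusted p = 0.0829 and 0.0598), and Rpl34 lost its call without PTU replicate 1 (adjusted p = 0.0527). Rpl23a, a large-subunit protein near the exit of the peptide tunnel, had 1583, 1772 and 1627 FPKM in cKO hearts on PTU with T3 against 1160, 1180 and 1494 FPKM on PTU (0.39, adjusted p = 0.0119), and lost its call under both fixed-sum scalings (adjusted p up to 0.228) and without PTU replicate 1 or PTU with T3 replicate 2. The interaction of T3 with genotype was called for none of these genes, so a difference between genotypes is not shown.

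On PTU with T3 against chow, 20 members were higher and 0 lower in cKO hearts, and 25 were higher and 0 lower in WT hearts; 20.9% of all genes were called in cKO (11.7% higher, 9.15% lower) and 14.7% in WT hearts (7.68% higher, 7.0% lower). The medians were 0.26 and 0.32, and 79 and 77 of the 82 members had positive values. All T3 hearts lay above all chow hearts for 60 members in cKO (22.4% of all genes) and 47 in WT hearts (16.3% of all genes). Of the calls, 12 of 47 large-subunit and 8 of 32 small-subunit genes were higher in cKO hearts, and 17 of 47 and 8 of 32 in WT hearts. Both genotypes shared 17 members (85% of the 20 and 68% of the 25), among them Rpl11, Rpl13, Rpl18, Rpl23a, Rpl27, Rpl3, Rpl31, Rps18, Rps19, Rps26 and Rps27a. Among the highest log2 fold changes were those of Rpl22l1 (0.84, adjusted p = 0.00824 in cKO; 0.83, adjusted p = 0.0128 in WT) and Rpsa (0.83, adjusted p = 0.021; 0.86, adjusted p = 0.0248), and in WT hearts Rpl34 (0.90, adjusted p = 0.0321). Of these, Rpl22l1 in cKO hearts kept its call without any 1 library. Rpl22l1 in WT lost it without chow replicate 1 or PTU with T3 replicate 3, Rpsa in cKO without chow replicate 2 or 3 or PTU with T3 replicate 1 or 2, and Rpsa in WT without chow replicate 1 or 3 or PTU with T3 replicate 2 or 3 (adjusted p up to 0.114). Rpl34 in WT lost it without any 1 of the chow hearts or without PTU with T3 replicate 1 or 3 (adjusted p up to 0.103). Rpl3 in WT lost its call without chow replicate 1 or PTU with T3 replicate 2 or 3 (adjusted p up to 0.0705). Rpl3 in cKO lost its call without chow replicate 1 or PTU with T3 replicate 1 or 2 (adjusted p up to 0.0776). Scaling to a fixed sum also ended both Rpl3 calls (adjusted p = 0.0784 in WT and 0.129 in cKO hearts). Rpl23a had 1583, 1772 and 1627 FPKM in cKO hearts on PTU with T3 against 1126, 1171 and 1083 FPKM on chow, and 1393, 1507 and 1715 FPKM against 1011, 1105 and 1077 FPKM in WT hearts, at log2 fold changes of 0.56 (adjusted p = 0.0032) and 0.53 (adjusted p = 0.00728). All T3 hearts lay above all chow hearts.

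The counts against chow again leaned on single hearts. In cKO hearts 11 members were called without chow replicate 2, 10 without chow replicate 3, 13 without PTU with T3 replicate 1 and 6 without PTU with T3 replicate 2. In WT hearts 3 were called without chow replicate 1, 14 without chow replicate 3, 12 without PTU with T3 replicate 2 and 2 without PTU with T3 replicate 3. Over all genes these fits called 12.9% to 16.3% in cKO and 7.54% to 10.6% in WT hearts. With all libraries the shares were 20.9% and 14.7%. Without the hearts highest in atrial markers 2 were called in cKO and 0 in WT hearts (7.63% and 5.74% of all genes). Rps27l in cKO hearts (0.61, adjusted p = 0.0038) held in all 29 settings. This comparison shares libraries with both others of its genotype.

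Genotype itself moved no member past the test. For cKO against WT on PTU with T3, on PTU and on chow, for the mean over treatments and for both interactions, limma called 0 members and 0.0% of the 12587 genes. At an unadjusted p under 0.05 there were 0, 2 and 0 members on PTU with T3, PTU and chow, against 434, 491 and 394 genes in all, 0 members for the mean over treatments against 209 genes, and 1 and 2 members for the PTU and T3 interactions against 805 and 821 genes. The 2 on PTU were Rpl3l, with a log2 fold change of -0.61, and Rpl3, with 0.42 (limma adjusted p = 0.911 for each). The authors' deposited tables gave a q-value under 0.05 for 1 member on PTU with T3, Rpl29, at 246 FPKM in cKO and 149 FPKM in WT hearts (q = 0.00736, the authors' values), and for 0 members on PTU and on chow, where 0.991%, 0.95% and 0.664% of the genes in those tables were under 0.05. For the WT treatments the authors' deposited tables had 22 members higher and 2 lower (Rpl29 and Rps27l) on PTU against chow (16.8% of genes under 0.05), 6 higher and 2 lower (Rpl22 and Rps9) on PTU with T3 against PTU (35.6%) and 12 higher and 1 lower (Rpl29) on PTU with T3 against chow (12.4%). Over the 82 members the sign of the log2 fold change matched between genotypes for 76 on PTU against chow, 69 on PTU with T3 against PTU and 76 on PTU with T3 against chow.

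The median within-group SD was 0.134 on the log2 scale for the members and 0.152 for all genes tested. Of the members, 4 exceeded 0.5, namely Rps27 (1.17), Rpl29 (0.914), Rpl26 (0.687) and Rplp0 (0.579). Rplp0, the base of the stalk and a common reference gene for PCR, had 957, 711 and 389.9 FPKM in cKO hearts on PTU with T3, 818, 964 and 962 FPKM on PTU and 641, 361 and 351 FPKM on chow. Over all hearts it lay at 349 to 389.9 FPKM in 5 and at 626 to 1004 FPKM in the other 13, with 4 of the 6 groups on both sides of the gap. Rpl29 lay at 76.9 to 106 FPKM in 8 hearts and at 220.4 to 347 FPKM in the other 10, with 5 groups on both sides. Only 1 heart was on the low side for both. The low hearts came from both genotypes and several treatments, and neither gene was called in any comparison by limma.

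Rps27, a zinc-finger protein of the small subunit, lay at 0.556 to 4.62 FPKM in 17 hearts and at 113 FPKM in cKO PTU replicate 3. The table holds a second gene, Rps27rt, whose coding sequence has 0 mismatches to Rps27 over 252 bases. Reads within the coding sequence match both genes, so the values of each are uncertain. The parts outside the coding sequence were not compared. Rps27rt, which falls outside the symbol rule, had 1419, 1602 and 1406 FPKM in cKO hearts on PTU with T3, 1722, 1593 and 2143 FPKM on PTU and 1605, 1312 and 1333 FPKM on chow. In WT hearts it had 1380, 1371 and 1662 FPKM on PTU with T3, 1909, 1928 and 2112 FPKM on PTU and 1221, 1512 and 1319 FPKM on chow. In WT it was called higher on PTU against chow (0.56, adjusted p = 0.0089) and lower on PTU with T3 against PTU (-0.43, adjusted p = 0.0137), and in cKO hearts the values were 0.36 (adjusted p = 0.0766) and -0.29 (adjusted p = 0.0784). Of 5 tested ribosomal proteins outside the symbol rule, Rps27rt included, 1 was higher on PTU against chow in cKO and 2 in WT hearts, and 0 and 2 were lower on PTU with T3 against PTU.

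**Figure D5:**
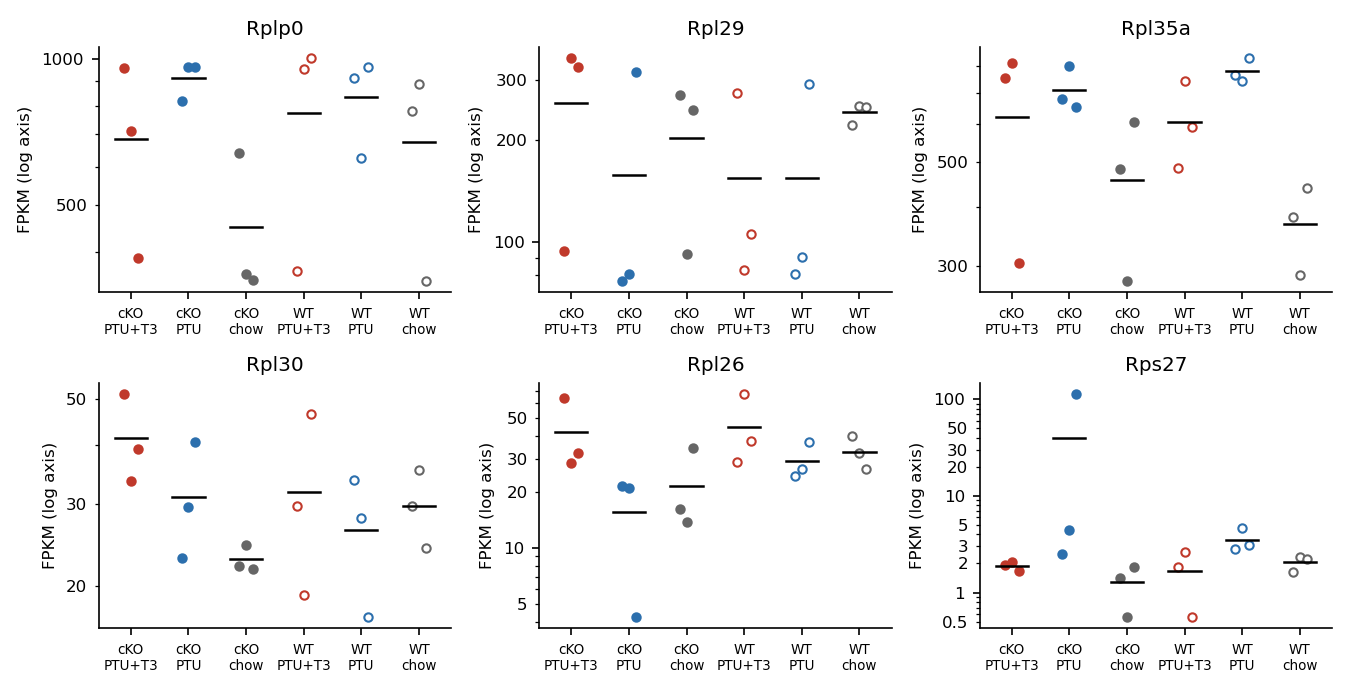
FPKM on log axes of 6 members with a wide spread between hearts of a group; symbols as in the other plots, lines are means of 3. Rplp0 and Rpl29 each fell at 2 levels within several groups, 349 to 389.9 or 626 to 1004 FPKM for Rplp0, and Rps27 reached 113 FPKM in 1 heart.

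The wider machinery of ribosome production was read from lists of named genes. Of 44 genes of rRNA processing and ribosome assembly, 28 were higher and 1 lower on PTU with T3 than on PTU in cKO hearts, and 17 and 4 in WT hearts, with medians of 0.35 and 0.22 (24.9% of all genes were higher in cKO and 22.3% in WT hearts). Over the alternative settings 14 to 28 were higher in cKO and 12 to 18 in WT hearts, the fewest under fixed-sum scaling. Rrp12, an assembly factor of both subunits, had 12.6, 9.07 and 10.1 FPKM in cKO hearts on PTU with T3 against 3.12, 4.16 and 2.98 FPKM on PTU, and 9.53, 9.03 and 11.7 FPKM against 3.41, 3.03 and 4.43 FPKM in WT hearts. The groups did not overlap, at 1.39 (adjusted p = 2.69e-06) and 1.27 (adjusted p = 8.43e-06). Nhp2, of the RNPs that guide pseudouridylation, rose by 0.76 and 0.72, Fbl, the rRNA methyltransferase fibrillarin, by 0.56 and 0.48, and Mrto4, which places the stalk, by 0.90 and 0.66 on the log2 scale. On PTU against chow the medians were -0.14 and -0.06. Of 15 genes of RNA polymerase I and its factors, 5 were higher and 3 lower on PTU with T3 against PTU in cKO hearts, beside 24.9% and 21.8% of all genes, and 1 and 5 in WT hearts. The 5 became 2 to 3 without cKO PTU replicate 1 or 2 or cKO PTU with T3 replicate 2 or 3, and 1 under fixed-sum scaling. Rrn3, the initiation factor TIF-IA, rose by 0.79 and 0.55, and Taf1a, a subunit of SL1, fell by 0.71 and 0.83.

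Translation factors and other TOP transcripts included more genes that fell than rose after T3. Of 25, 1 was higher and 12 lower in cKO hearts on PTU with T3 against PTU, and 1 and 10 in WT hearts, with medians of -0.19 and -0.21 (21.8% of all genes were lower in each genotype). The settings gave 7 to 19 lower in cKO hearts, 7 without PTU with T3 replicate 3 and 19 under fixed-sum scaling, and 7 to 15 in WT hearts. On PTU against chow 7 were higher and 0 lower in cKO hearts and 10 and 0 in WT hearts, with medians of 0.21 and 0.23. Leaving out 1 library brought these counts as low as 1 in cKO hearts (chow replicate 1) and 6 in WT hearts (chow replicate 1 or PTU replicate 3), and without the libraries highest in atrial markers they were 3 and 1. Eif4b, an activator of the helicase Eif4a, had 53.7, 53.5 and 52.8 FPKM in cKO hearts on PTU with T3, 114, 112 and 111 FPKM on PTU and 74.2, 81.9 and 91.2 FPKM on chow, and 57.7, 53.9 and 54.4 FPKM, 113, 117 and 124 FPKM and 87.6, 71.4 and 71.1 FPKM in the WT groups in the same order. No groups of a genotype overlapped, and PTU with T3 against PTU gave -1.06 (adjusted p = 2.3e-07) and -1.08 (adjusted p = 2.1e-07). Eef2, the translocation factor, fell by 0.69 and 0.85, and Eef1a1, which delivers tRNAs, by 1.13 (adjusted p = 0.000306) and 0.52 (adjusted p = 0.0494), while its muscle paralogue Eef1a2 had 0.37 (adjusted p = 0.0835) and -0.18 (adjusted p = 0.405). The WT call of Eef1a1 did not hold in every alternative setting.

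Among 20 genes of mTORC1 and translation control, 7 were higher and 5 lower on PTU with T3 against PTU in cKO hearts, and 4 and 7 in WT hearts, beside 24.9% and 21.8% of all genes in cKO and 22.3% and 21.8% in WT hearts; with shares this close nothing is read from the list's counts. Ddit4, an inhibitor of mTORC1, had 25.8, 32.4 and 22.2 FPKM in cKO hearts on PTU with T3, 67.8, 71.1 and 63.8 FPKM on PTU and 26.1, 34.3 and 25.8 FPKM on chow. Its log2 fold changes were 1.22 (adjusted p = 3.01e-05) on PTU against chow and -1.32 (adjusted p = 1.54e-06) on PTU with T3 against PTU in cKO hearts, and -1.36 (adjusted p = 1.38e-06) in WT hearts for the second. Eif4ebp1, the repressor of cap-dependent translation, fell by 1.46 and 1.27 after T3, and Larp1, which binds TOP mRNAs, was not called in any treatment comparison by limma. Myc, which drives ribosome genes in many cells, was not called, with 0.25 (adjusted p = 0.413) in cKO and 0.52 (adjusted p = 0.0873) in WT hearts after T3. Its antagonist Mxi1 fell by 0.94 and 1.12. Of 8 tested genes of the Myc network, 0 were higher and 5 lower in cKO hearts (3 lower without PTU replicate 1), and 1 and 2 in WT hearts. Of 11 p53 and Mdm2 targets, 4 were higher and 3 lower in cKO hearts after T3, and 5 and 0 in WT hearts (3 without PTU replicate 1 or PTU with T3 replicate 2), with medians of 0.04 and 0.31. Among them Mdm2, the ligase that Rpl5 and Rpl11 can inhibit, rose by 0.93 (adjusted p = 4.91e-06) and 0.89 (adjusted p = 9.29e-06).

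Mitochondrial ribosomal protein genes, which serve a separate ribosome, give a comparison. Of 77, 0 were higher and 30 lower on PTU against chow in cKO hearts, and 0 and 11 in WT hearts, with medians of -0.38 and -0.15, where 9.59% and 8.76% of all genes were lower. In cKO hearts 9, 13, 13 and 12 were lower without chow replicate 1, chow replicate 2, PTU replicate 1 and PTU replicate 2. In WT hearts 7, 1, 7, 2 and 3 were lower without chow replicates 1, 2 and 3 and PTU replicates 1 and 2, and the settings ran from 1 to 21. On PTU with T3 against PTU, 65 in cKO and 48 in WT hearts were higher and 0 lower, with medians of 0.74 and 0.42, and the settings gave 59 to 70 and 29 to 56 higher. On PTU with T3 against chow the medians were 0.37 and 0.32. Mrpl12 rose by 1.56 in cKO and 1.18 in WT hearts on PTU with T3 against PTU. They took 1.22% to 1.247% of the summed FPKM in cKO hearts on PTU with T3, 0.860% to 0.949% on PTU and 0.984% to 1.05% on chow. Proteasome subunits, another large complex, showed 26 higher and 2 lower of 38 in cKO hearts and 22 and 1 in WT hearts on PTU with T3 against PTU, with medians of 0.36 and 0.35, and the settings gave 15 to 29 and 12 to 25 higher, beside 24.9% and 22.3% of all genes. Macrophage markers moved in the same comparison: their 8 genes summed to 333 to 391 FPKM in cKO hearts on PTU with T3, 124 to 331 FPKM on PTU and 259 to 322 FPKM on chow, and to 343 to 463 FPKM, 112 to 181 FPKM and 218 to 381 FPKM in the WT groups in that order. After T3, 6 of the 8 were higher in cKO (3 without PTU replicate 1) and 7 in WT hearts, with medians of 1.05 and 1.47. Of 7 cardiomyocyte markers 4 were higher and 0 lower in cKO hearts (median 0.88), and 3 higher and 2 lower in WT hearts (median 0.31). Of 5 red-cell markers 1 was higher in cKO hearts (median 0.89) and 0 in WT hearts, and of 6 endothelial markers 2 and 1 were higher. None of the 8 was absent, fibroblast markers gave 0 of 7 called in each treatment comparison (limma), and the part of these cells in the results on ribosomal proteins was not tested.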

How the data were processed

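PolyA RNA from frozen mouse hearts was sequenced after Trizol extraction with a TruSeq V2 kit, per the labels' protocols; that kit does not mark strand, so overlapping antisense transcripts cannot be told apart. The authors deposited FPKM values per gene for the 18 libraries and 6 tables of their own comparisons with p-values and q-values, per the file headers. Bowtie2, Cufflinks and the build mm10 are named in the submitters' processing notes, and which gene models were used is not stated there. No read totals are held in the files, so depth is unknown and no counting interval is given.

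Values were analysed as log2(FPKM + 1), a scale that understates the change of low genes, with limma 3.58.1 in R 4.3.3 (trended and robust variances). The fit had 6 group means, 18 libraries and 12 residual degrees of freedom. The 12587 genes reaching 1 FPKM in 3 or more libraries were tested, with Benjamini-Hochberg adjustment over all of them for each of the 12 comparisons, and an adjusted p under 0.05 was a call. All tests were two-sided. An exact permutation test of 3 against 3 cannot go below 0.1 and was not used. The fit was tested on simulated data. Replicates correlated at 0.975 to 0.992 over genes, and no pair of libraries was a duplicate. Of the table's values 152291 stood at the floor of 0.01 FPKM, and 5 values in 2 genes were failed estimates, and those genes were left out.

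Members, gene lists and tests were chosen with earlier results of these data known. Genes named are the paralogue pairs, the stalk genes and Rpsa, up to 5 called members with the highest and the lowest log2 fold change in each comparison (the 3 smallest p where there was no call), the highest, median and lowest by level in each subunit, members under the filter, Med13, and up to 4 called genes of each other list together with Ddit4, Myc, Larp1, Eif4ebp1, Eef1a1 and Eef1a2. The median by level of the small subunit is not reported here. Members with a wide spread and Rps27rt were named after their values were seen. Fbl was named outside the rule for the other lists. Alternatives were other pseudocounts (0.1 and 5), no filter and a filter of 5 FPKM, median-ratio scaling, scaling to a fixed sum with and without the members and the 100 most abundant genes, array weights, plain variances, the compared groups alone and leaving out each library. Positions and coding sequences came from GENCODE on GRCm38, promoters from RefSeq on GRCm38.p6. Tables were handled in Python 3.11.15 with pandas 2.3.3, numpy 2.4.6, biopython 1.88 and matplotlib 3.10.9.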

Additional observations from a re-analysis of the deposited data

How the results depend on the processing

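No paired analysis was possible because the numbers in the sample titles differ between all libraries, so no groups share a replicate number. All 0 counts for genotype stayed at 0 when single libraries were left out. Scaling to a fixed sum, and in brackets the same without members and the 100 most abundant genes, gave in cKO hearts 56 (50) members called on PTU against chow with a median of 0.37 (0.33), and 47 (42) on PTU with T3 against PTU with a median of -0.25 (-0.20). Of all genes, 15.7% (18.6%) were called in cKO hearts on PTU against chow and 49.8% (51.6%) on PTU with T3 against PTU. The first scaling gave 13 on PTU with T3 against chow in cKO hearts with a median of 0.15, beside 17.7% of all genes. Both gave 27 (28) on PTU with T3 against PTU in WT hearts, beside 39.3% (44.3%) of all genes. The interaction median became 0.062 for PTU under the first scaling, and for T3 it became -0.12 under the first and -0.042 under the second. Relative to all genes, whose median moved by 0.13, the PTU median in cKO hearts was then 0.23. Rpl9 on PTU with T3 against PTU in cKO hearts became -0.26, against 0.01 in the full analysis. The cause of these shifts was not tested.

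Fitting only the groups compared, with fewer residual degrees of freedom, left 2 members called on PTU against chow and 9 on PTU with T3 against PTU in cKO hearts. In WT hearts it left 14 and 7 in these comparisons and 1 on PTU with T3 against chow. Of all genes, 7.88% and 42.7% were called in the cKO fits and 12.1%, 35.7% and 6.81% in the WT fits, in the same order. Without the library highest in atrial markers of each group, a setting chosen after seeing the data that leaves 2 per group, the counts were 0, 5 and 2 in cKO hearts and 2, 7 and 0 in WT hearts (PTU against chow, PTU with T3 against PTU, PTU with T3 against chow). Of all genes, 10.2%, 35.8% and 7.63% were then called in cKO hearts and 7.31%, 32.4% and 5.74% in WT hearts. Leaving out single libraries gave 3 to 15 members on PTU against chow, 13 to 24 on PTU with T3 against PTU and 6 to 24 on PTU with T3 against chow in cKO hearts, and 9 to 42, 9 to 19 and 2 to 31 in WT hearts. With 3 libraries a group and no read totals, small changes of low genes could not be resolved.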
